A study of Mus musculus with 6 samples.

Results

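Oncostatin M and its relatives of the interleukin-6 (IL-6) family were followed in mouse lung through 10 genes: the ligand genes *Osm*, *Lif*, *Il6* and *Il11*, the receptor genes *Il6ra*, *Il6st*, *Osmr* and *Lifr*, the transcription factor gene *Stat3* and the inhibitor gene *Socs3*. They were taken by their symbols from the 54532 genes of the deposited read counts, and all 10 were found and had enough reads to enter the fit across 16568 genes. Because the set was put together with the genotype contrast of these same lungs known, the genotype differences of the 10 genes are given as a description, without *p*-values. The lungs came from 3 GRdim/dim mice and 3 GR+/+ littermates of a mixed 129/SvEv x C57BL/6 background, aged 10 to 16 weeks. GRdim/dim mice carry a point mutation in every cell, in *Nr3c1*, the gene of the glucocorticoid receptor (GR), which impairs dimerization of the receptor. All mice of both genotypes were anesthetized, ventilated, bled into hemorrhagic shock (HS) with a mean arterial pressure of 35 mmHg held for 1 h, given back their blood and resuscitated for 4 h with fluid and norepinephrine, so no unshocked lung enters the comparison. Both sexes were present in each genotype, with more females among the GR+/+ and more males among the GRdim/dim mice, and the sex of a single library is not given. Whole lung was sequenced after poly(A) capture, 1 library per mouse.

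Cytokines of the IL-6 family share the signal-transducing receptor chain gp130, the product of *Il6st*. IL-6 and IL-11 first bind a receptor of their own and then bring gp130 chains together, whereas LIF pairs gp130 with the LIF receptor and mouse oncostatin M pairs it with the oncostatin M receptor. Janus kinases on these chains phosphorylate STAT3, which enters the nucleus and induces, among others, *Socs3*, whose product binds gp130 and dampens the signal. Oncostatin M is known as a product of activated neutrophils, macrophages and T cells, while its receptor is found on endothelial cells, fibroblasts and epithelial cells.

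The 250 bases upstream of a RefSeq transcript start of *Il6* and of *Socs3* are shown because they hold matches to motifs of inflammatory transcription factors and of STAT proteins. The sequences are those of RefSeq for GRCm38.p6, read 5′ to 3′ along each gene. Capitals mark TGANTCA, the AP-1 motif, and an NF-kB motif (GGG and TTTCC with any 2 bases between them), in *Il6* (chr5:30012864-30013113, plus strand), and TTCNNNGAA, the STAT motif, in *Socs3* (chr11:117969367-117969616, minus strand), where N is any base.

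Il6: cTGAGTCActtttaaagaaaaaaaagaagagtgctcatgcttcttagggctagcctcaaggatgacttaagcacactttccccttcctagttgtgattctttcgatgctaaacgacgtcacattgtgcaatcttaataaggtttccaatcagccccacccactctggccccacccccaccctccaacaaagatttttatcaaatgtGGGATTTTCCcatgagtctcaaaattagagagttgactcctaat

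Socs3: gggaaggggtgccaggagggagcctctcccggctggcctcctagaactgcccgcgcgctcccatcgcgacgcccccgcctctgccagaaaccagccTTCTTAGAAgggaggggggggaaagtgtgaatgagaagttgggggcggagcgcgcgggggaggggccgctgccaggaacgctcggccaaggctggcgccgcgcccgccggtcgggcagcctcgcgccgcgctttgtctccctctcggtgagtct

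Windows from 250 bases before to 50 bases after an annotated start were searched on both strands. Of the 10 genes, 9 had at least 1 such window in RefSeq, 11 windows in all, and *Osm* had no entry. The STAT motif was found in *Socs3* alone among these, where 8.3% of all 32851 promoter windows hold it. The AP-1 motif, searched with any base in the middle, was found in *Il6*, *Lif*, *Osmr* and 1 of the windows of *Il11*, against 7.81% of all windows. The match in *Osmr* read TGATTCA and lay after the transcript start, whereas the others read TGAGTCA or TGACTCA. The NF-kB motif was found in *Il6*, against 1.63% of all windows. The full palindrome bound by GR dimers (AGAACA and TGTTCT with any 3 bases between them) was found in 0 of the 11 windows and in 0.00913% of all windows. The stretch shown for *Socs3* begins 431 bases inside the 5′ end of the gene as it was counted, because the counted gene includes a start farther upstream. A match to these letters describes the sequence and is no measured binding site.

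Total counts were 16361747 to 32082940 in GR+/+ and 15687734 to 24444604 in GRdim/dim libraries. Levels are given as CPM, the reads of a gene per 1000000 reads of its library, with the totals adjusted by the trimmed mean of M-values (TMM), and as the mean ± SD over 3 lungs. In these units, a floor of 3 counts corresponds to 0.0953 to 0.194 CPM, depending on the library. *Nr3c1* itself was counted at 148 ± 12.2 CPM in GR+/+ and 143 ± 20.2 CPM in GRdim/dim lungs (SD, n = 3 each), and gene counts do not show its point mutation. GRdim/dim replicate 3 stood apart from the other libraries by gene length, and it and GRdim/dim replicate 1 deviated in opposite directions by base composition. Against the mean of all 6 libraries, its median log2 level was 0.22 higher for the 5882 genes under 3000 bases and 0.24 higher for the 3596 genes with a GC content over 55%, whereas that of the 2527 genes over 8000 bases was −0.24. The other libraries lay between −0.09 and 0.03 for the short genes and between −0.01 and 0.09 for the long ones, and between −0.19 (GRdim/dim replicate 1) and 0.08 for the GC-rich ones. Among the 4231 genes with a GC content under 45%, GRdim/dim replicate 1 deviated most, at 0.18, and replicate 3 was at −0.15. Values without replicate 3, or after a correction for gene length and GC content, are therefore given where they differ.

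Between the genotypes, the family did not move as 1 block. Every GRdim/dim lung lay above every GR+/+ lung for 5 of the 10 genes, *Osm*, *Il6*, *Osmr*, *Stat3* and *Socs3*, and below it for *Lif* and *Il6ra*, while the ranges overlapped for *Il11*, *Il6st* and *Lifr*. Over all genes tested, the ranges of the genotypes did not overlap in 14.8%, with 7.77% higher and 7.05% lower in GRdim/dim lungs. The set was chosen on this contrast, so nothing is read from its share. The median log2 fold change of the 10 genes was 0.34, and that of all genes tested 0.01. Without GRdim/dim replicate 3 the median of the 10 genes was 0.01, with the same split of 5 genes above and 2 below against 29.6% not overlapping among all genes. After the correction for gene length and GC content, the median was 0.38 and *Il6* joined the overlapping genes. Of all genes tested, 16.5% did not overlap after this correction.

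**Figure D1:**
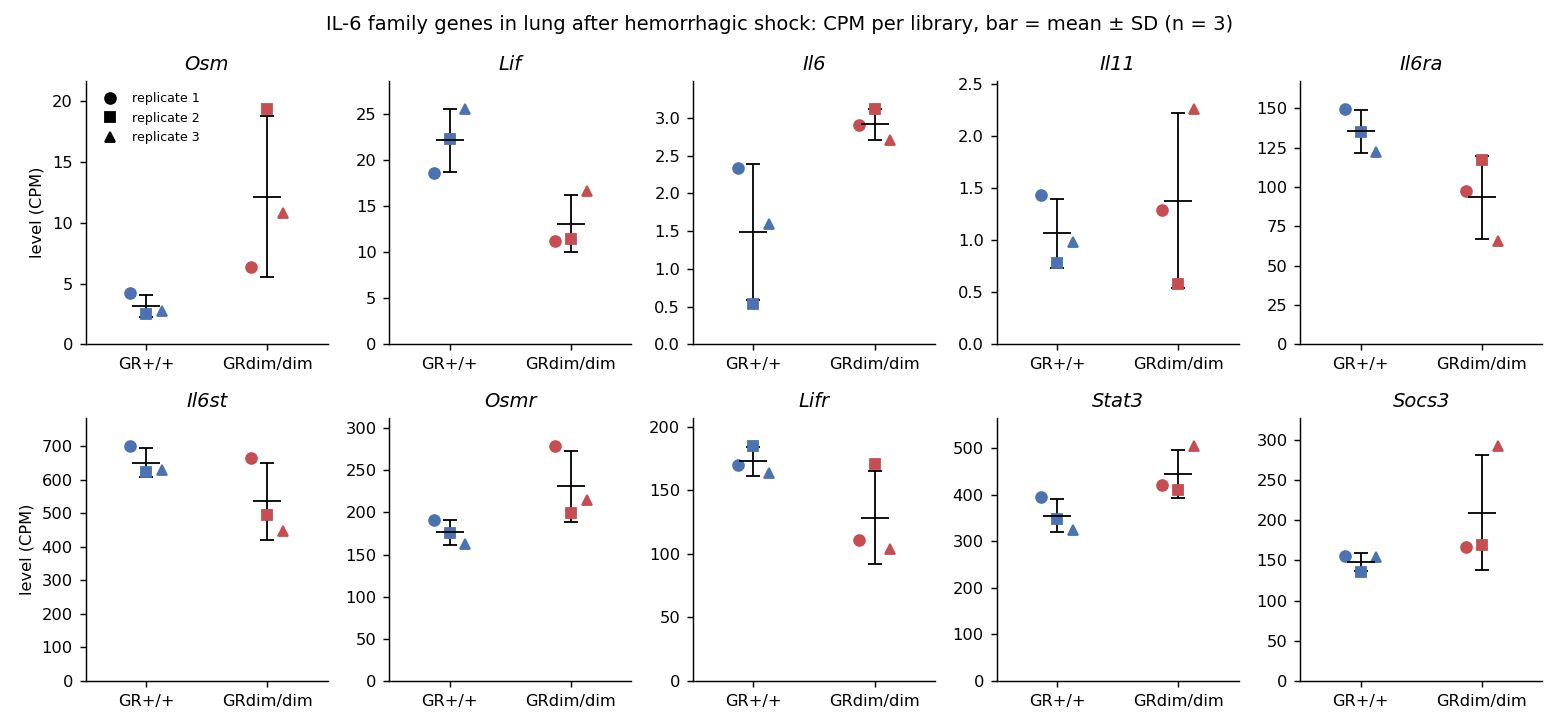
Level of each of the 10 genes in every library, in CPM on a linear axis from 0, with GR+/+ lungs in blue, GRdim/dim lungs in red, a symbol for each replicate number and a bar for mean ± SD (n = 3). The GRdim/dim lungs of *Osm* reach 6.36 to 19.4 CPM, all above the GR+/+ lungs, those of *Lif* lie at 11.3 to 16.7 CPM, all below, and the triangle of GRdim/dim replicate 3 is the highest for *Il11*, *Stat3* and *Socs3* and the lowest for *Il6ra*, *Il6st* and *Lifr*.

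Of the ligands, *Osm*, the gene of oncostatin M (ENSMUSG00000058755, chromosome 11 of GRCm38 from 4236420 to 4241026, plus strand), differed most. It was counted at 4.18, 2.46 and 2.76 CPM in GR+/+ replicates 1, 2 and 3 and at 6.36, 19.4 and 10.8 CPM in GRdim/dim replicates 1, 2 and 3. The lowest GRdim/dim lung thus lay above the highest GR+/+ lung, and GRdim/dim replicate 2 was far above the rest. The means were 3.13 ± 0.921 and 12.2 ± 6.61 CPM (SD, n = 3 each), a ratio of 3.88, and the log2 fold change from edgeR was 1.96 with a standard error of 0.41. Without GRdim/dim replicate 2 it was 1.45, the lowest of the fits that each left out 1 library, and the highest was 2.28. The raw counts behind these values were 41 to 87 reads per GR+/+ and 118 to 466 reads per GRdim/dim library. Its transcripts share no 31-base window with another gene.

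*Lif*, the gene of leukemia inhibitory factor (ENSMUSG00000034394, chromosome 11 from 4257557 to 4272514, plus strand), is the next protein-coding gene downstream of *Osm*, 16530 bases away, and went in the opposite direction. The GR+/+ lungs had 18.6, 22.3 and 25.6 CPM and the GRdim/dim lungs 11.3, 11.4 and 16.7 CPM. Here every GRdim/dim lung was below every GR+/+ lung, with means of 22.2 ± 3.46 and 13.1 ± 3.07 CPM (SD, n = 3 each) and a log2 fold change of −0.76 (standard error 0.24, −0.97 to −0.64 when each library was left out). The genes upstream of the pair had log2 fold changes of 0.07 (standard error 0.28, *Castor1*), 0.19 (0.18, *Tbc1d10a*) and 0.01 (0.17, *Sf3a1*). Their adjusted *p*-values from edgeR were 0.968, 0.821 and 0.993.

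*Il6*, the gene of IL-6 itself (ENSMUSG00000025746, chromosome 5 from 30013114 to 30019981, plus strand), was scarce. It was counted at 2.33, 0.540 and 1.59 CPM in GR+/+ and at 2.91, 3.12 and 2.71 CPM in GRdim/dim lungs, from 9 to 75 reads per library. The GRdim/dim lungs were close to each other and above the GR+/+ lungs, which were spread more widely. The means were 1.49 ± 0.900 and 2.91 ± 0.202 CPM (SD, n = 3 each), and the log2 fold change was 0.97 (standard error 0.48, range 0.59 to 1.41 over the fits without 1 library). After the correction for gene length and GC content it was 0.84 (standard error 0.48) and the ranges overlapped.

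*Il11*, whose product acts on fibroblasts and epithelium through its own receptor and gp130 (ENSMUSG00000004371, chromosome 7 from 4772373 to 4782857, minus strand), was the lowest of the 10 genes. Its levels were 1.43, 0.779 and 0.985 CPM in GR+/+ and 1.29, 0.582 and 2.26 CPM in GRdim/dim lungs. Both the highest and the lowest value belonged to GRdim/dim lungs, and the ranges overlapped. The log2 fold change of 0.35 was smaller than its standard error of 0.54, and it was −0.19 without GRdim/dim replicate 3. Other genes share 5.15% of the 31-base windows of its transcripts, so some of its few reads may be ambiguous.

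Of the receptor chains, *Osmr* was higher and *Il6ra* lower in every GRdim/dim lung, and *Lifr* and *Il6st* overlapped. *Osmr*, the oncostatin M receptor chain (ENSMUSG00000022146, chromosome 15 from 6813577 to 6874969, minus strand), was at 191, 175 and 162 CPM in GR+/+ and at 279, 199.6 and 214 CPM in GRdim/dim lungs. Every GRdim/dim lung was above every GR+/+ lung, though GRdim/dim replicate 2 only narrowly. The means were 176 ± 14.7 and 231 ± 42.1 CPM (SD, n = 3 each), and the log2 fold change was 0.39 (standard error 0.18, range 0.24 to 0.49 over the fits without 1 library). With the correction for gene length and GC content it was 0.46 (standard error 0.17).

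*Lifr*, the LIF receptor chain, lies on the same chromosome (ENSMUSG00000054263, from 7090614 to 7197489, plus strand) and had 169.7, 185 and 164 CPM in GR+/+ and 111, 171 and 104 CPM in GRdim/dim lungs. GRdim/dim replicate 2 fell among the GR+/+ lungs and the other two GRdim/dim lungs lay below them. The log2 fold change was −0.43 (standard error 0.21), and it was −0.68 to −0.29 when each library was left out. With the correction for gene length and GC content it was −0.38 (standard error 0.19).

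*Il6ra*, the IL-6 receptor chain that can also be shed as a soluble receptor (ENSMUSG00000027947, chromosome 3 from 89864059 to 89913196, minus strand), was at 149, 135 and 122 CPM in GR+/+ and at 97.5, 117 and 65.3 CPM in GRdim/dim lungs. The GRdim/dim lungs all lay below the GR+/+ lungs, replicate 2 by the smallest margin. The means were 135 ± 13.7 and 93.3 ± 26.2 CPM (SD, n = 3 each), and the log2 fold change was −0.54 (standard error 0.22). It was −0.33 without GRdim/dim replicate 3 and −0.46 (standard error 0.17) after the correction for gene length and GC content. The antisense gene *Gm42809* overlaps 242 of its exon bases but was given 0 to 6 reads per library.

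*Il6st*, the gene of the shared chain gp130 (ENSMUSG00000021756, chromosome 13 from 112464070 to 112510086, plus strand), had 700, 622 and 628 CPM in GR+/+ and 664, 495 and 447 CPM in GRdim/dim lungs. GRdim/dim replicate 1 lay within the range of the GR+/+ lungs. The log2 fold change was −0.28 with a standard error of 0.20, and it was −0.17 without GRdim/dim replicate 3, −0.46 without GRdim/dim replicate 1 and −0.21 (standard error 0.16) after the correction for gene length and GC content.

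Downstream of the receptors, *Stat3* (ENSMUSG00000004040, chromosome 11 from 100885098 to 100939540, minus strand) was at 395, 348 and 324 CPM in GR+/+ and at 422, 411 and 505 CPM in GRdim/dim lungs. The GRdim/dim lungs were all higher, with means of 355 ± 36.2 and 446 ± 51.8 CPM (SD, n = 3 each) and a log2 fold change of 0.33 (standard error 0.18, range 0.23 to 0.41 over the fits without 1 library). After the correction for gene length and GC content the log2 fold change of *Stat3* was 0.45 (standard error 0.17). *Stat5a* on the opposite strand overlaps 72 of its exon bases, and since the use of strand in the counting is not given, reads from that stretch cannot be assigned with certainty.

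*Socs3* (ENSMUSG00000053113, chromosome 11 from 117966079 to 117970047, minus strand), the feedback inhibitor of gp130 signals, was at 155, 135 and 154 CPM in GR+/+ and at 167, 169 and 292 CPM in GRdim/dim lungs. The ranges did not overlap, but GRdim/dim replicates 1 and 2 lay just above the GR+/+ lungs and replicate 3 carried most of the difference. The means were 148 ± 11.4 and 209.5 ± 71.7 CPM (SD, n = 3 each) and the log2 fold change 0.50 (standard error 0.23). Without GRdim/dim replicate 3 it was 0.18, and with all libraries corrected for gene length and GC content it was 0.45 (standard error 0.17). *Socs3* is short and GC-rich, with 2891 exon bases and a GC content of 58.7%, as are the genes that library counted higher.

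**Figure D2:**
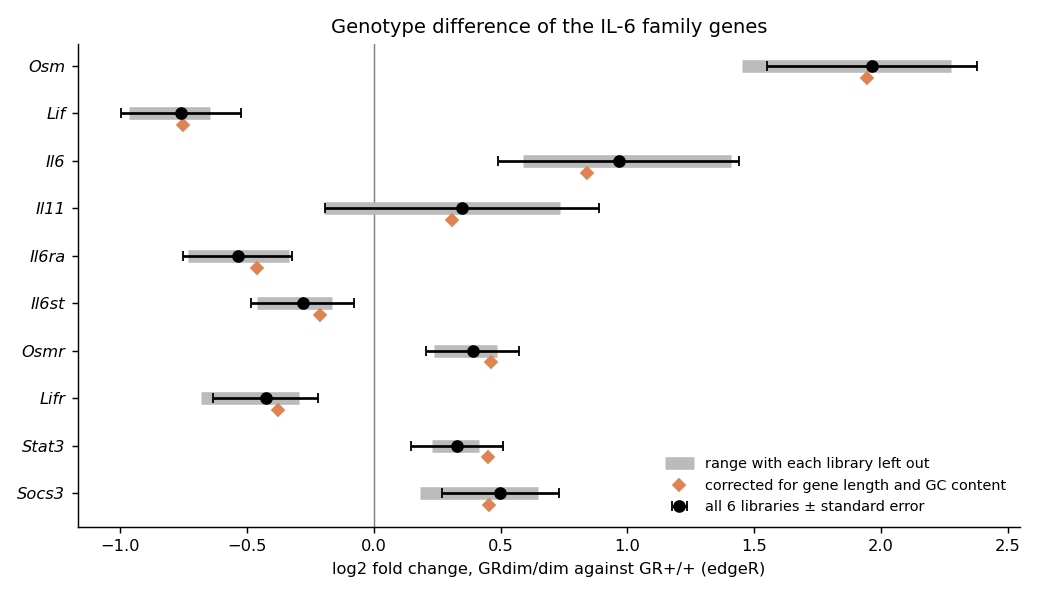
Log2 fold change of GRdim/dim against GR+/+ lungs for each gene, as black points with the standard error from edgeR over all 6 libraries, with a grey band from the lowest to the highest value when 1 library is left out and an orange diamond for the value after correction for gene length and GC content. *Osm* at 1.96 and *Lif* at −0.76 are farthest from 0 on either side of the axis, and only the grey band of *Il11* crosses 0.

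At a log2 fold change beyond 0.5 with an adjusted *p*-value under 0.05, edgeR's quasi-likelihood test gave 0 differentially expressed genes (DEGs) among the 10, where 0.169% of all genes tested were DEGs (28 genes, 0.0724% higher and 0.0966% lower in GRdim/dim lungs). Before adjustment, 1 of the 10 was higher and 2 were lower with *p* under 0.05, against 9.6% of all genes, 4.91% higher and 4.68% lower. DESeq2 called 1 of the 10, *Osm*, against 1.7% of the 16150 genes to which it gave an adjusted *p*-value, 0.817% higher and 0.879% lower. *Osm* was also called by DESeq2 in each of the 6 fits that left out 1 library, and *Lif* in the fit without GRdim/dim replicate 3. As before, the choice of the genes on this contrast leaves nothing to be read from these counts.

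Setting the genes against each other requires levels per length, here CPM per kilobase of gene length. Over all 6 lungs the order from high to low was *Socs3* (mean 61.9), *Il6st* (53.4), *Stat3* (42.1), *Osmr* (16.8), *Lifr* (14.0), *Il6ra* (13.2), *Lif* (4.06), *Osm* (3.37), *Il6* (0.906) and *Il11* (0.608 CPM per kilobase). Neighbours in this order did not overlap over the 6 libraries only between *Stat3* and *Osmr* and between *Il6ra* and *Lif*. The inhibitor, the shared chain and the transcription factor thus came first, followed by the private receptor chains and then by the ligands, although the highest *Osm* lung, at 8.52, exceeded the lowest *Il6ra* lung, at 7.55 CPM per kilobase. With the longest coding sequence in place of gene length, *Il6ra* moved up to the fourth place and only the gap after *Stat3*, 1 of these, remained.

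Within each genotype these groups held the same genes, but the order inside them differed and depended in part on the length used. In GR+/+ lungs *Osmr* had the lowest mean of the private chains at 14.6 ± 1.21 CPM per kilobase, below *Il6ra* at 15.7 ± 1.58 and *Lifr* at 16.03 ± 1.03, and neighbours among these overlapped. Per kilobase of coding length, *Lifr* was the lowest of them in GR+/+ lungs at 52.7 ± 3.37, with *Osmr* at 60.5 ± 5.03 (SD, n = 3 each). In GRdim/dim lungs *Osmr* was the highest of them per gene length at 19.1 ± 3.48, above *Lifr* at 11.9 ± 3.40 and *Il6ra* at 10.8 ± 3.03 CPM per kilobase (SD, n = 3 each). Among the ligands, *Lif* led in GR+/+ lungs at 5.10 ± 0.797 CPM per kilobase and *Osm* followed at 1.38 ± 0.405. In GRdim/dim lungs *Osm* stood first at 5.36 ± 2.91 and *Lif* second at 3.02 ± 0.706 CPM per kilobase, although their ranges overlapped there. Per kilobase of coding length *Lif* came before *Osm* in these lungs too, at 21.5 ± 5.04 and 15.4 ± 8.37 (SD, n = 3 each).

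**Figure D3:**
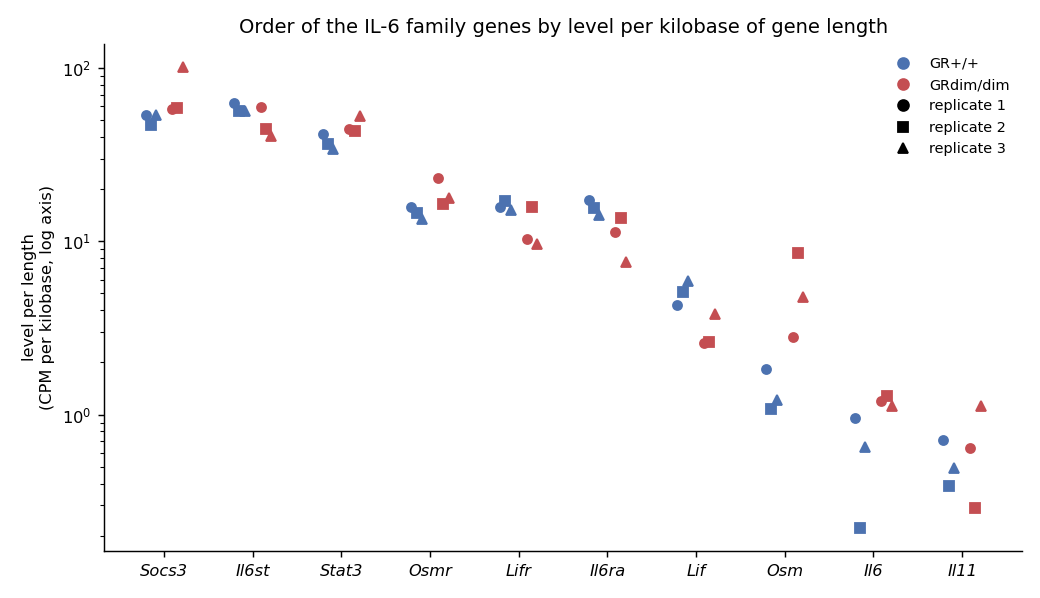
Level per kilobase of gene length, on a log axis, of the 10 genes ordered by their mean over all 6 lungs, with blue symbols for GR+/+ and red symbols for GRdim/dim lungs and a shape for each replicate number. Steps are visible after *Stat3* and after *Il6ra*, where only *Osm* in a GRdim/dim lung reaches past the lowest *Il6ra* value, and *Osm* spans the widest gap between blue and red symbols, from a mean of 1.38 to one of 5.36 CPM per kilobase.

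Ratios within a library do not depend on the scaling of libraries. They were not corrected for gene length and GC content, so they still carry the deviations of GRdim/dim replicates 1 and 3. The ratio of *Osm* to *Lif* per length was 0.430, 0.211 and 0.207 in GR+/+ and 1.08, 3.24 and 1.24 in GRdim/dim lungs, and the ranges did not overlap. Per coding length it was 0.173, 0.0851 and 0.0834 in GR+/+ and 0.436, 1.31 and 0.4996 in GRdim/dim lungs, so the ratio was again higher in every GRdim/dim lung, but *Osm* exceeded *Lif* only in GRdim/dim replicate 2. The ratio of *Osmr* to *Lifr*, the partner chains of gp130 for these ligands, was 1.003, 0.843 and 0.882 in GR+/+ and 2.24, 1.04 and 1.83 in GRdim/dim lungs. It was again higher in every GRdim/dim lung, with replicate 2 close to the GR+/+ lungs. The ratio of *Osmr* to *Il6st* was the tightest within each genotype, at 0.251, 0.258 and 0.237 in GR+/+ and 0.385, 0.370 and 0.440 in GRdim/dim lungs, or 0.248 ± 0.0110 and 0.398 ± 0.0367 (SD, n = 3 each). The ratios of *Lifr* and of *Il6ra* to *Il6st* overlapped between genotypes, and so did that of *Socs3* to *Stat3*, with 1.38 ± 0.161 in GR+/+ and 1.52 ± 0.333 in GRdim/dim lungs (SD, n = 3 each). The highest ratio of *Socs3* to *Stat3*, 1.91, was that of GRdim/dim replicate 3. Being built from the same counts, these ratios carry no test either.

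**Figure D4:**
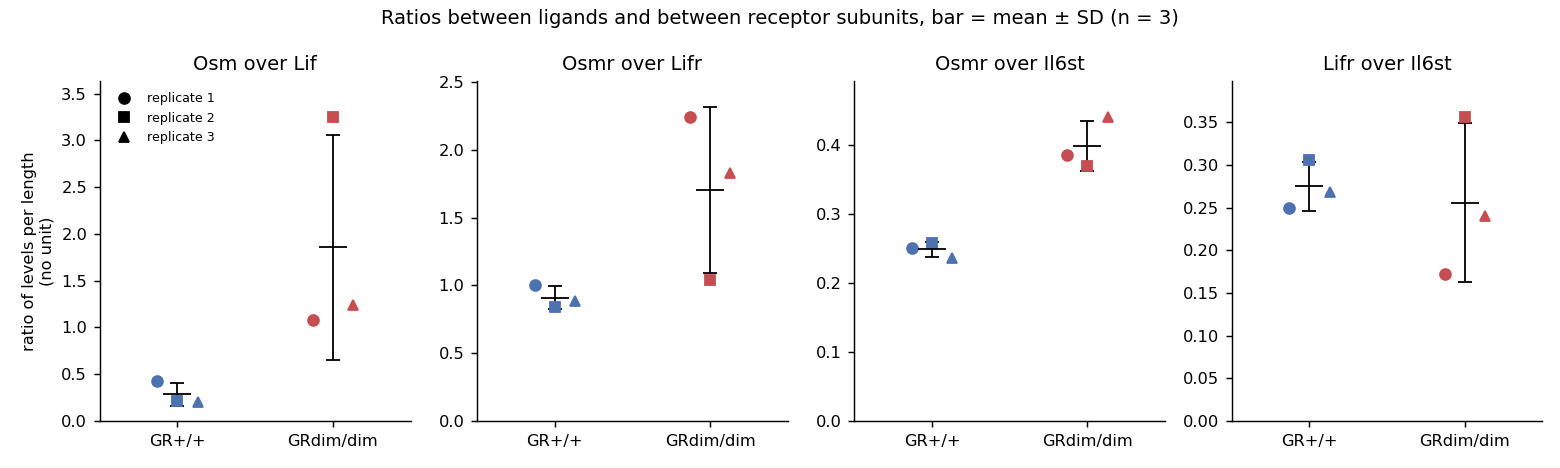
Ratios of levels per length within each library, without unit, on linear axes from 0, for *Osm* over *Lif*, *Osmr* over *Lifr*, *Osmr* over *Il6st* and *Lifr* over *Il6st*, with a symbol for each replicate and bars for mean ± SD (n = 3). In the first 3 panels all red GRdim/dim symbols lie above all blue GR+/+ symbols, from 0.370 upward against 0.258 and less for *Osmr* over *Il6st*, and in the last panel they overlap.

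The other genes of the pathway were read from a list of 38, of which 33 had enough reads. edgeR called 0 of them in either direction, against 0.169% of all genes tested, and DESeq2 called 1, against 1.7%. With an unadjusted *p* below 0.05 from edgeR, 3 were higher and 1 was lower, against 4.91% and 4.68% of all genes. The median log2 fold change of the 33 genes was 0.02, beside 0.01 for all genes tested, with 17 above and 16 below 0. This list too was chosen with earlier results of these data known, so nothing is read from its counts or median. Of the other ligands, *Clcf1*, the gene of cardiotrophin-like cytokine, had a log2 fold change of −0.07 (standard error 0.19) and *Ctf1*, the cardiotrophin 1 gene, one of 0.04 (standard error 0.30). *Cntf*, *Il27* and *Il31* had too few reads to be tested.

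Of the other receptors, *Cntfr*, the chain that binds ciliary neurotrophic factor, was the gene DESeq2 called. It was at 16.2, 9.17 and 7.34 CPM in GR+/+ and 5.61, 3.28 and 4.65 CPM in GRdim/dim lungs, without overlap (log2 fold change −1.27, standard error 0.35, adjusted *p* = 0.278 from edgeR and 0.0286 from DESeq2, with a range from 0.00946 to 0.667 over the alternatives). *Il27ra*, the IL-27 receptor chain that also pairs with gp130, was at 5.54 ± 1.52 and 10.2 ± 0.618 CPM (SD, n = 3 each), higher in every GRdim/dim lung (log2 fold change 0.89, standard error 0.28, adjusted *p* = 0.342 from edgeR). *Il11ra1*, the IL-11 receptor, had a log2 fold change of −0.07 (standard error 0.18). *Il31ra* had too few reads, and *Il11ra2* had 0 reads in all 6 libraries, which allows up to 0.194 CPM in the shallowest of them.

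The proteases that shed receptors from the cell surface differed little, with log2 fold changes of 0.03 for *Adam10* and 0.02 for *Adam17* (standard errors 0.19 and 0.18). The 10 kinases, adaptors and other STAT genes lay between −0.34 and 0.15 on the log2 scale. The kinase gene *Jak1* was at 0.13 (standard error 0.22) and the adaptor gene *Shc1* at −0.05 (standard error 0.16). *Ptpn11*, the phosphatase SHP2 that competes with SOCS3 for gp130, was the 1 of them without overlap, against 14.8% of all genes tested. It was at 256 ± 32.2 CPM in GR+/+ and 201 ± 14.7 CPM in GRdim/dim lungs (log2 fold change −0.34, standard error 0.17, adjusted *p* = 0.571 from edgeR). Of the 7 other inhibitors, *Socs2* had 163, 117 and 124 CPM in GR+/+ and 185, 159 and 188 CPM in GRdim/dim lungs with overlapping ranges (log2 fold change 0.39, standard error 0.18, adjusted *p* = 0.529 from edgeR), *Cish* a log2 fold change of 0.13 (standard error 0.24) and *Pias1* one of −0.05 (standard error 0.20).

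*Il6* mRNA is broken down with the help of *Zfp36* (tristetraprolin), *Zfp36l1* and *Rc3h1* (roquin) and stabilized by *Arid5a*. The first 3 had log2 fold changes of −0.02, −0.24 and −0.09 (standard errors 0.22, 0.17 and 0.17). *Arid5a*, named after its values were seen, was at 52.8 ± 14.9 CPM in GR+/+ and 94.4 ± 32.8 CPM in GRdim/dim lungs with overlapping ranges (log2 fold change 0.84, standard error 0.27, adjusted *p* = 0.360 from edgeR, with a range from 0.00580 to 0.611 over the alternatives).

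A list of 25 genes known to be induced by IL-6 family cytokines or STAT3 was read in the same way, and 23 were tested. edgeR called 0, against 0.169% of all genes tested, and DESeq2 called 1, against 1.7%. With an unadjusted *p* below 0.05 from edgeR, 3 were higher and 0 lower, against 4.91% and 4.68% of all genes. Of the 23, 16 had a log2 fold change above 0, where 50.9% of all genes did, and the median was 0.44. Without GRdim/dim replicate 3, 14 were above 0 with a median of 0.20, and without GRdim/dim replicate 1, 13 with a median of 0.20. The list was chosen with earlier results of these data known, so nothing is read from its counts or median. *Pim1*, a survival kinase and STAT target, was at 87.0, 90.8 and 74.1 CPM in GR+/+ and at 118, 150 and 156 CPM in GRdim/dim lungs. It did not overlap between genotypes and was the gene called by DESeq2 (log2 fold change 0.75, standard error 0.17, adjusted *p* = 0.175 from edgeR and 0.0286 from DESeq2, with a range from 0.0126 to 0.396 over the alternatives).

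The most abundant of these response genes showed no such difference. *Vegfa*, the vascular growth factor, had a log2 fold change of −0.03 (standard error 0.19), the survival factor *Mcl1* one of 0.01 (standard error 0.17) and the hemoglobin scavenger *Hp* one of −0.31 (standard error 0.26). The other genes with an unadjusted *p*-value under 0.05, named after their values were seen, were *Lcn2* and *Cebpd*. *Lcn2*, an iron-binding acute phase gene, was at 58.9 ± 17.6 and 104 ± 26.8 CPM (SD, n = 3 each) without overlap (log2 fold change 0.82, standard error 0.26, adjusted *p* = 0.342 from edgeR). *Cebpd*, an acute phase transcription factor, was at 364, 298 and 274 CPM in GR+/+ and 284, 705 and 778 CPM in GRdim/dim lungs, so that GRdim/dim replicate 1 lay within the GR+/+ range (log2 fold change 0.92, standard error 0.33, adjusted *p* = 0.417 from edgeR, with a range from 1.41e-05 to 0.634 over the alternatives).

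**Figure D5:**
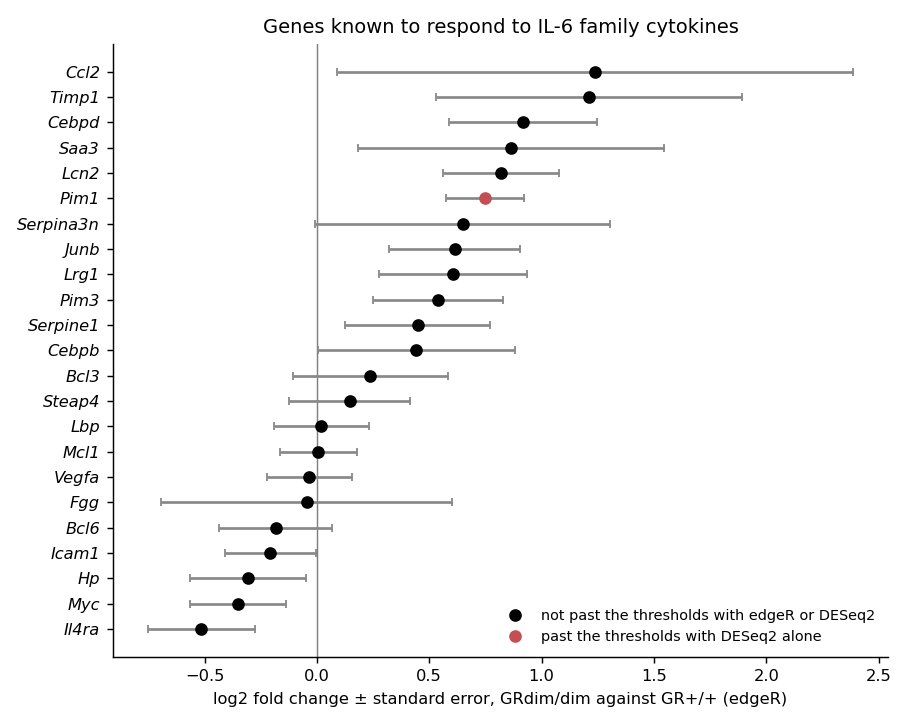
Log2 fold change with its standard error from edgeR, GRdim/dim against GR+/+ lungs, for the 23 tested genes known to respond to IL-6 family cytokines, ordered by value, with *Pim1*, the gene past the thresholds with DESeq2 alone, in red. The values run from −0.51 (*Il4ra*) to 1.24 (*Ccl2*), 16 lie right of 0, and the genes farthest to the right have wide standard errors.

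Since whole lung was sequenced, a higher level can come from more cells of a type or from more RNA per cell, and these cannot be told apart here. Markers of immune cells were therefore summed per library, among them the neutrophils, macrophages and T cells named above as sources of oncostatin M. Monocytes and B cells, not named there, were summed beside them. The 7 neutrophil markers summed to 466, 326 and 240 CPM in GR+/+ and 1081, 341 and 479 CPM in GRdim/dim lungs, with overlapping ranges and 6 of 6 tested markers above 0 on the log2 scale. *Retnlg*, a neutrophil granule gene, was the 1 marker of these cell types that DESeq2 called, at 30.8, 18.6 and 18.5 CPM in GR+/+ and 68.6, 34.1 and 42.6 CPM in GRdim/dim lungs, without overlap (log2 fold change 1.10, standard error 0.29, adjusted *p* = 0.253 from edgeR and 0.0225 from DESeq2, with a range from 0.000306 to 0.486 over the alternatives). The 5 monocyte markers, 5 of them above 0, summed to 183 to 304 CPM in GR+/+ and 235 to 358 CPM in GRdim/dim lungs, and the 6 alveolar macrophage markers, 2 of them above 0, to 115 to 169 and 119 to 141 CPM, each with overlap. The 6 T cell markers, 6 of them above 0, summed to 17.4, 33.2 and 19.7 CPM in GR+/+ and 33.0, 48.0 and 42.6 CPM in GRdim/dim lungs, and the ranges overlapped narrowly. The 4 B cell markers, 4 of them above 0, summed to 21.2, 49.16 and 23.3 CPM in GR+/+ and 49.22, 74.8 and 59.0 CPM in GRdim/dim lungs, without overlap. Within the GRdim/dim lungs, *Osm* and the T and B cell sums were highest in replicate 2 and lowest in replicate 1, and the neutrophil sum was highest in replicate 1 and lowest in replicate 2. The orders differed within the GR+/+ lungs, where *Osm* and the neutrophil sum were highest in replicate 1. There *Osm* was lowest in replicate 2, in which the T and B cell sums were highest. None of these markers were found at 0 in any library, and their part in the levels of *Osm* and the other genes was not tested.

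The summed markers of the cells that bear the receptors overlapped between genotypes. The 5 endothelial markers summed to 2096 to 3262 CPM in GR+/+ and 1978 to 2581 CPM in GRdim/dim lungs, with 0 of 5 above 0 on the log2 scale. The 5 fibroblast markers summed to 860 to 1916 and 1364 to 1755 CPM, with 4 of 5 above 0. The 4 smooth muscle, 3 alveolar type 1, 4 alveolar type 2, 3 airway and 3 erythroid markers overlapped in their sums as well. Of the smooth muscle markers, 2 of 4 were above 0 on the log2 scale. *Acta2* did not overlap, at 70.4 to 175 CPM in GR+/+ and 183 to 234 CPM in GRdim/dim lungs. *Myh11*, *Tagln* and *Des* overlapped, at −0.34, −0.14 and 0.08 on the log2 scale. The epithelial markers were high in all 6 libraries, with at least 13469 CPM for the type 2 set. Of the 3 basophil and mast cell markers, 2 were at 0 in some library.

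Genes whose pattern over the 6 libraries was most like that of a ligand or of *Socs3* were found by the root mean square difference of log2 CPM centred on each gene's mean, among 15334 genes with at least 1 CPM. This is a measure of likeness over 6 libraries and carries no test. Nearest to *Osm* were *Hr* (0.33), *Crem* (0.34), *P2ry10* (0.35), *Tcf15* (0.36) and *Nr4a1* (0.37 on the log2 scale). *Nr4a1*, an immediate-early nuclear receptor, was at 255, 73.1 and 144 CPM in GR+/+ and at 275, 992 and 353 CPM in GRdim/dim lungs, with its peak in GRdim/dim replicate 2 as for *Osm*. *Crem*, a cAMP-responsive transcription factor, was at 22.0, 15.8 and 21.3 CPM in GR+/+ and at 37.3, 66.9 and 57.5 CPM in GRdim/dim lungs, with the same order among the latter. *Il6* came at rank 207 and the neighbouring gene *Lif* at rank 14553 of this list.

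Nearest to *Il6* were *Rnase1*, *BC052040*, *Kif2c*, *Hba-a2* and *Slc35f3*, at 0.23 to 0.34 on the log2 scale, all at low levels except the hemoglobin gene *Hba-a2*. Nearest to *Socs3* were *Arf5*, *Eif4h*, *Znhit1*, *Ctu2* and *Tbcb*, at 0.06 to 0.09 on the log2 scale, each of them highest in GRdim/dim replicate 3. *Stat3* came at rank 335 of the genes most like *Socs3*.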

How the data were processed

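RNA from the lungs of 3 GR+/+ and 3 GRdim/dim mice was sequenced after poly(A) capture, and the values the authors deposited are raw counts of reads for each gene, without normalization or pooling. Per the submitters' processing notes the build was mm10 (GRCm38) and DESeq2 was used. The aligner, the counting tool and the use of strand are not given in the sources used here. The members and gene lists were chosen with earlier results of these data known.

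Counts were analysed in R 4.3.3 with edgeR 4.0.16 (TMM, filterByExpr, robust glmQLFit, glmQLFTest, Benjamini-Hochberg adjustment over 16568 genes). DESeq2 1.42.0 with default settings was an alternative. DEGs passed a log2 fold change of 0.5 in either direction at an adjusted *p*-value under 0.05. A prior count of 2 entered log2 CPM. Libraries of a genotype differed by 19.2 to 62.9 chi-square units per degree of freedom, where sampling noise gives about 1, and were used as separate replicates. No other columns of values were present. DESeq2 with each library left out, coding length from GENCODE M21 and the correction for gene length and GC content were added after the data had been seen, and the last covered 99.9% of the genes tested. The fit was tested on simulated counts. Total counts of 15687734 to 32082940 per library leave the spread between mice as the main limit for all but the lowest genes.

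The genes named were all 10 members, in each list the genes called by edgeR or DESeq2 and the 3 with the highest mean CPM, and the 5 genes most like *Osm*, *Il6* and *Socs3*. A gene under this rule is not reported here. Genes outside this rule are said to be named after their values were seen. Other alternatives were RLE scaling, other filters, no fold threshold, a replicate block, a covariate for sex-linked expression and each library left out. Of the 54532 genes, 54409 were found in GENCODE M21 and 53462 had identical coordinates there, including 9 of the 10 members, with *Il11* as the exception.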

Additional observations from a re-analysis of the deposited data

How the results depend on the processing

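Over all genes, edgeR gave 28 DEGs and between 4 (without GR+/+ replicate 2) and 22 when each library was left out, 12, 17 and 14 of them without GR+/+ replicate 1, GR+/+ replicate 3 and GRdim/dim replicate 3. Without a filter on low counts it gave 522, with 1 of the 10 members, *Osm*, 2 other pathway genes and 3 response genes. DESeq2 gave 274, with 1 member, 1 other pathway gene and 1 response gene, and 182, 192 and 175 without GR+/+ replicates 1, 2 and 3 and 253, 241 and 384 without GRdim/dim replicates 1, 2 and 3, with 1 to 2 members, 0 to 2 other pathway genes and 0 to 4 response genes. RLE scaling, at least 10 counts in every library, no fold threshold, the sex-linked covariate and the correction for gene length and GC content gave 20 to 31 DEGs, 0 of them among members or lists, with *Il6* not tested at the minimum of 10 counts. The 189 member log2 fold changes under all alternatives moved by less than the replicate SD, and 3 changed sign, all of *Il11*: −0.19 without GRdim/dim replicate 3 with edgeR, −0.19 with DESeq2 on the same libraries, and −0.18 with the sex-linked covariate. The number of neighbours in the order of levels that did not overlap was 2, with 1 for coding length and 2 to 3 without single libraries. Coding lengths came from GENCODE M21, since a reference protein table was not used here. With the replicate number as a block, edgeR gave 34 DEGs and 0 members. Deviations of libraries with the same number had correlations of 0.22, 0.04 and −0.05, and those with different numbers −0.27 to 0.19. The largest was that of the libraries numbered 1, but not every library correlated best with its own number. So few values cannot settle whether the numbers pair the libraries. The causes of these changes were not tested.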
